A study of Homo sapiens with 24 samples.

Results

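The nuclear genes that encode the subunits of the 5 oxidative phosphorylation complexes were followed across 3 breast cancer cell lines, an inhibitor of MCT1, which carries lactate and pyruvate across the cell membrane, and an MCT1 knockdown. Members were taken by symbol: genes starting with NDUFA, NDUFB, NDUFC, NDUFS, NDUFV, UQCR, COX4I, COX5, COX6, COX7, COX8 or ATP5, with pseudogenes, read-through genes and antisense transcripts left out, together with SDHA, SDHC, SDHD and CYC1. The rule found 86 of the 19775 genes measured, and it used names alone, no expression value. Complex I had 33 members, complex II 3, complex III 7, complex IV 17 and complex V 18. The other 8 were NDUFAF1 to NDUFAF8, which the NDUFA prefix takes in but which help to assemble complex I without being part of it, and they are described apart. Each gene was read by the probe set (a group of short probes for 1 transcript) of highest mean over the 24 arrays. SDHB, UQCRFS1, NDUFA4 and NDUFA4L2 were not analysed here. NDUFC2, NDUFS5, NDUFS8, UQCRH and UQCRHL were carried only by probe sets that name several genes and were not used, and none of the 13 subunits encoded by mitochondrial DNA was among the genes measured.

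Oxidative phosphorylation couples the oxidation of NADH and succinate to ATP synthesis in the inner mitochondrial membrane. Complexes I and II pass electrons to coenzyme Q, complex III passes them to cytochrome c, and complex IV reduces oxygen, while complexes I, III and IV pump the protons that drive the ATP synthase, complex V. Most subunits are encoded in the nucleus and joined with mitochondrially encoded ones by assembly factors, and breast cancer lines that rely on glycolysis are often studied for how far they still use this chain.

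The arrays measured total RNA of HS578T, SUM159PT and SUM149PT cells, 3 breast cancer lines the study describes as strongly glycolytic. HS578T was grown in DMEM with serum and the SUM lines in F12 with serum, insulin, hydrocortisone, EGF and gentamicin, so that line and medium cannot be told apart for HS578T. Each line was treated for 24 h with AZD3965, an MCT1 inhibitor, or with DMSO. SUM149PT was also infected with lentivirus carrying an MCT1 shRNA or a scramble shRNA and selected with puromycin at 2 µg/ml for 5 days. Every one of the 8 groups had 3 arrays. Nothing in the labels says that the 3 are separate cultures, and the spread that the p-values rest on may therefore be technical. Whether the shRNA cells were a pool or a clone, and how many hairpins were used, the sources used here do not say.

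All 24 arrays had been scaled to a trimmed mean signal of 500.1, and their median signals lay between 49.2 and 67.4. The third scramble shRNA array stood apart: the 3' to 5' signal ratio of its actin control probe sets was 53.8, against 1.2 to 2.14 on the other 23 arrays, and that of GAPDH was 2.35, against 0.798 to 0.948. The knockdown results are therefore given with and without it. The tests take each gene's spread from all 24 arrays, so this array also enters the p-values of the other comparisons. In each comparison of 2 other groups the members' median standard error was 0.0967 with it and 0.0785 without it. The summed signal of 7 epithelial markers was 5995 to 6540 in HS578T, 9439 to 13244 in SUM159PT and 54742 to 67697 in SUM149PT with AZD3965 or DMSO, and that of 6 mesenchymal markers was 81791 to 86478, 56375 to 73380 and 30479 to 36330 in the same lines. On the shRNA arrays of SUM149PT the epithelial sum was 63992 to 68740 with MCT1 shRNA, against 48103 to 55455 with scramble shRNA, with no overlap, and the mesenchymal sum was 20223 to 25121, against 22127 to 23153. Of the members, 78 of 86 had a mean signal above percentile 90 of the probe sets, and 83 passed the filter on dim genes and were tested; ATP5MF, COX7B2 and COX8C did not.

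Promoters of 73 of the 86 genes were found in RefSeq (GRCh38.p14), as windows of 250 bases before and 50 bases after the annotated start. The 4 printed here belong to the 3 members that passed the test after MCT1 knockdown and to the complex I subunit of smallest p between the SUM lines. They are COX7A2L at chr2:42361168-42361467 on the minus strand, UQCR10 at chr22:29767119-29767418, NDUFAF5 at chr20:13784778-13785077 and NDUFS6 at chr5:1801157-1801456, these 3 on the plus strand. Capitals mark matches, on either strand, to GCGCA followed by any base and GCGC (NRF1), to CCGGAAG (the ETS family) or to AAGATGGCG (YY1), factors that are known to act on respiratory genes.
COX7A2L: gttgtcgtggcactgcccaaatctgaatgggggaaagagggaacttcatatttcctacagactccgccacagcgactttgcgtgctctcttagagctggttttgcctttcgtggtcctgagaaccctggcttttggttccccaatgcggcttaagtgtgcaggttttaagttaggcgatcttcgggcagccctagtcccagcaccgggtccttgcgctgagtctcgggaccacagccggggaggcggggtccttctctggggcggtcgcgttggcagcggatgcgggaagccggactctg
UQCR10: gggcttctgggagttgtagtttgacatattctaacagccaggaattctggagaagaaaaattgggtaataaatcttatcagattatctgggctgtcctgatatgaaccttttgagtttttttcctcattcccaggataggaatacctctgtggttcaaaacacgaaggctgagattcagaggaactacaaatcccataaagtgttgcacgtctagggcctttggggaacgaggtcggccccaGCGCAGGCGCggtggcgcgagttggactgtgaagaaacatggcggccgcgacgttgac
NDUFAF5: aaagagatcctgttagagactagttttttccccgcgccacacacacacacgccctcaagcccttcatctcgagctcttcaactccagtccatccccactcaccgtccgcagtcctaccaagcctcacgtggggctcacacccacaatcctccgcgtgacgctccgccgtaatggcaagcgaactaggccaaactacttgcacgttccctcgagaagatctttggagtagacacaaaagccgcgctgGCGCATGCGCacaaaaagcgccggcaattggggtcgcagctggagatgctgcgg
NDUFS6: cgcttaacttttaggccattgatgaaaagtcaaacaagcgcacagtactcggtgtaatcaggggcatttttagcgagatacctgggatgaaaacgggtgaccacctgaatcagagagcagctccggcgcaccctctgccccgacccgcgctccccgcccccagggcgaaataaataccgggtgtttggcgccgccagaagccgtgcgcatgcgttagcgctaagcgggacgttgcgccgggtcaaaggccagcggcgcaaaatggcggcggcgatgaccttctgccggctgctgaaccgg

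The UQCR10 and NDUFAF5 windows each held 1 match to the NRF1 letters, and the COX7A2L and NDUFS6 windows held none of the 3. Over all members with a window, the NRF1 letters were present in 17 of 73 (23.3%), against 8.58% of 15843 protein-coding promoters of the same length. The ETS letters were present in 19 (26%), against 14.2%, and the YY1 letters in 7 (9.59%), against 2.74%. By complex, the NRF1 letters were found in 6 of 31 windows of complex I, 2 of 2 of complex II (SDHA and SDHD), 3 of 5 of complex III, 1 of 14 of complex IV and 4 of 14 of complex V. The YY1 letters lay in 5 complex I windows, those of NDUFA6, NDUFA7, NDUFA9, NDUFS4 and NDUFS7, and in no complex IV window. A match is a description of the letters and not evidence of binding.

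The largest feature of the set was the cell line. On a scale where each gene is set against its own mean over the 24 arrays, the median of the 83 tested members was -0.33, -0.31 and -0.32 (log2) on the HS578T arrays with AZD3965 and -0.29, -0.28 and -0.36 on those with DMSO. In SUM159PT it was 0.01, 0.06 and 0.20 with AZD3965 and 0.00, 0.05 and -0.02 with DMSO, and in SUM149PT 0.14, 0.18 and 0.16 with AZD3965 and 0.00, 0.08 and 0.04 with DMSO. All 6 HS578T arrays lay below the other 18. The shRNA arrays of SUM149PT had medians of 0.13, 0.23 and 0.24 with MCT1 shRNA and 0.16, 0.09 and 0.46 with scramble shRNA. The third scramble array was the highest of all 24, and the other scramble arrays overlapped with the knockdown. Quantile normalization, which forces all arrays to the same distribution, left the order of the lines in place: the HS578T medians became -0.25, -0.28 and -0.29 with AZD3965 and -0.23, -0.25 and -0.30 with DMSO, and the third scramble array stayed highest at 0.39. In RNA from whole cultures, fewer cells that make these transcripts and less of them per cell cannot be told apart.

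**Figure D1:**
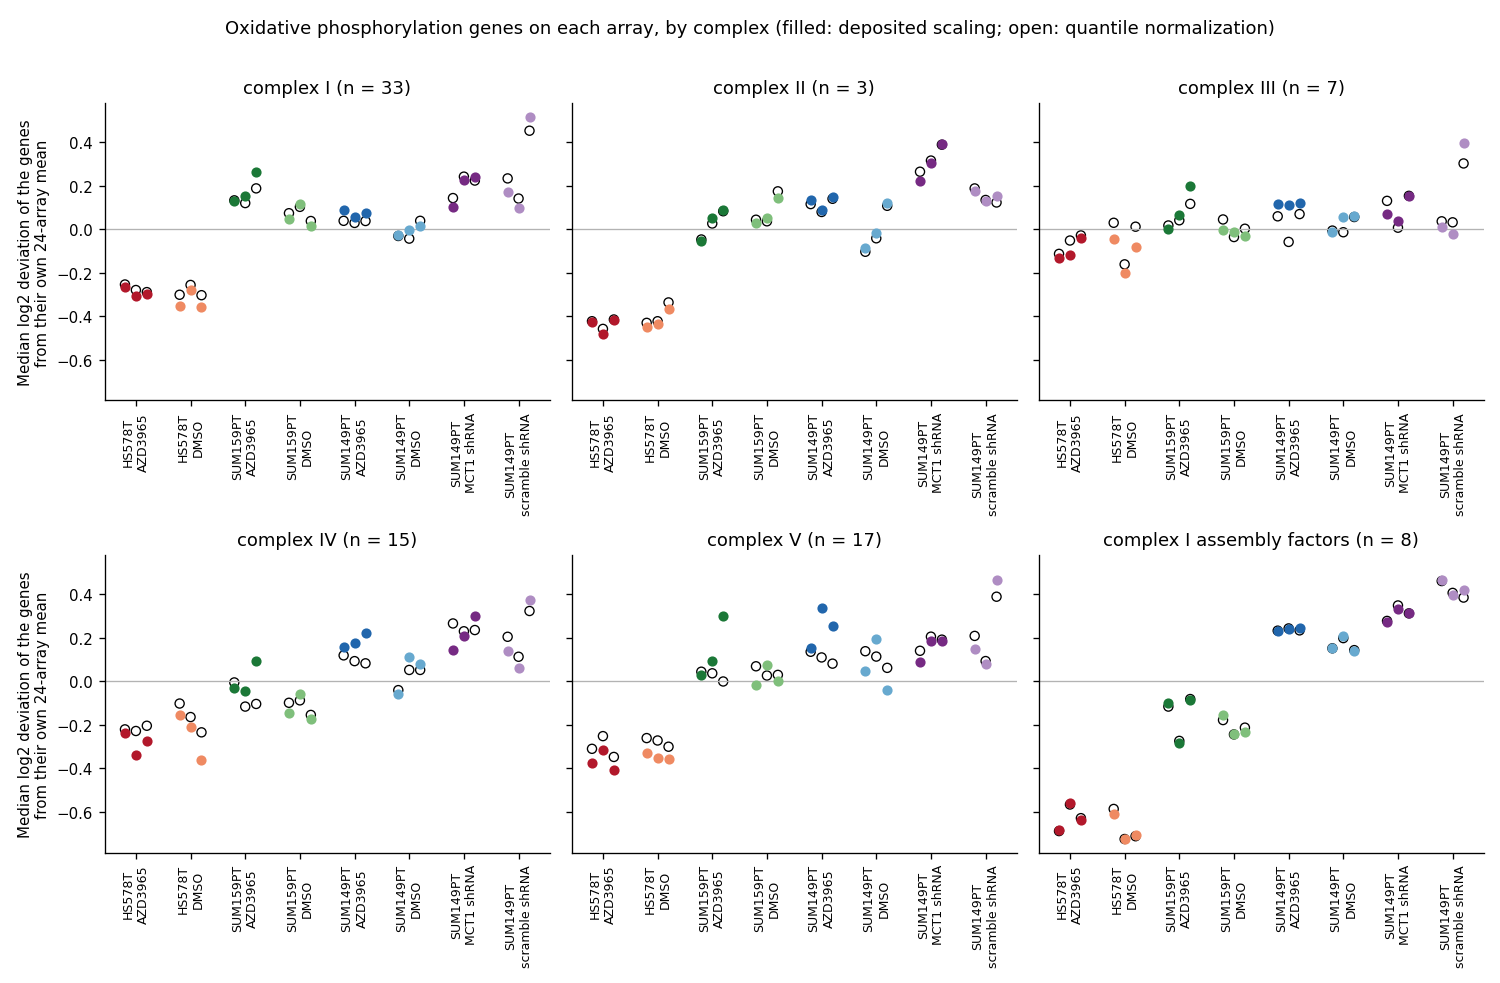
Median log2 deviation of the members of each complex from their own 24-array mean (vertical axis), on each array, with 1 panel per complex and 1 for the complex I assembly factors; the groups run from HS578T on the left to SUM149PT with scramble shRNA on the right, filled points are the deposited scaling and open points are after quantile normalization. The HS578T arrays are lowest in the panels of complexes I, II and V and of the assembly factors, and the third scramble array is the highest of all in the panels of complexes I, III, IV and V.

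The complexes did not sit equally far down in HS578T. On the DMSO arrays of that line, the median deviation was -0.35, -0.28 and -0.36 for complex I, -0.45, -0.44 and -0.37 for complex II, and -0.33, -0.35 and -0.36 for complex V. It was nearer to 0 for complex IV, at -0.16, -0.21 and -0.36, and for complex III, at -0.04, -0.20 and -0.08. The assembly factors were furthest down, at -0.61, -0.72 and -0.71 on the DMSO arrays of HS578T, against -0.16, -0.24 and -0.23 in SUM159PT and 0.15, 0.21 and 0.14 in SUM149PT. The difference between complexes was not tested. Within single genes the spread over all 24 arrays was wide in some and narrow in others: NDUFAB1 of complex I ranged between 9841 and 27043, NDUFS7 between 1707 and 3034, and UQCRC1 of complex III between 5301 and 8642. The dim ATP5MF stayed between 9.86 and 103, and NDUFAF7 between 889 and 2025.

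After MCT1 knockdown in SUM149PT, 3 of the 83 members passed the test, limma with Benjamini-Hochberg adjustment over 14141 genes at an adjusted p below 0.05. COX7A2L, which joins complexes III and IV into supercomplexes, rose, and UQCR10, a small subunit of complex III, and NDUFAF5, which modifies a core subunit during complex I assembly, fell. That is 1 member higher, where 7.22% of all genes tested were higher, and 2 lower, where 7.64% were lower, and neither count stands above the share over all genes. The summed epithelial signal was higher with the knockdown, while the summed mesenchymal signals of the groups overlapped. All 7 epithelial markers had values above 0 and 2 were called higher, and 5 of 6 mesenchymal markers were above 0 and 1 was called higher. Without the third scramble array 6 of 7 and 3 of 6 were above 0, with 1 called higher in each list. KRT19, an epithelial marker, averaged 12875 with MCT1 shRNA, against 6097 with scramble shRNA. Among mesenchymal markers SPARC averaged 45.0 against 11.5, low signals beside 19019 in HS578T with DMSO, and VIM averaged 9864 against 11128. The part of the markers in the members' results was not tested. The median member changed by -0.04 (log2), with 34 above and 49 below 0, against -0.00 over all genes. An unadjusted p under 0.05 was found for 14 members, 8 higher and 6 lower. Over all genes it was found for 3910 of 14141, 1830 higher and 2080 lower.

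COX7A2L had signals of 7926, 8712 and 8638 with MCT1 shRNA, against 6452, 6014 and 6380.2 with scramble shRNA. The groups did not overlap. Its log2 fold change was 0.42 ± 0.07 (SE; 95% interval 0.27 to 0.58, adjusted p = 0.000339), and it was 0.43 ± 0.08 without the third scramble array (adjusted p = 0.000835) and 0.45 after quantile normalization. UQCR10 had 8499, 9538 and 9139 with MCT1 shRNA, against 10186, 9714 and 16877 with scramble shRNA, where the third array was far above the others. The fall of -0.39 ± 0.12 (adjusted p = 0.0343) was not called without that array, at -0.14 ± 0.07 (adjusted p = 0.205), nor without any single knockdown array. NDUFAF5 had 3197.5, 3625 and 3450.5 with MCT1 shRNA, against 4245, 3636.5 and 5437.5 with scramble shRNA, the highest knockdown array lying just under the lowest scramble array. Its fall of -0.36 ± 0.10 (adjusted p = 0.022) became -0.20 ± 0.09 without the third scramble array (adjusted p = 0.156), and the call was also lost without the first knockdown array (adjusted p = 0.0976) or the third (adjusted p = 0.0538). A further probe set of each of UQCR10 and NDUFAF5 was also lower with MCT1 shRNA, by log2 fold changes of -0.47 and -0.50.

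Without the third scramble array the median member changed sign: 4 rose and 0 fell, the median was 0.09, and 62 of 83 were above 0, while the median over all genes was 0.00. In that fit 6.15% of all genes were higher, and 15 members had an unadjusted p under 0.05, 13 of them higher. Over all 14141 genes 3500 had one, 1776 of them higher. Beside COX7A2L, the members called were COX7C, a subunit of complex IV, at 0.30 ± 0.07 (adjusted p = 0.00661), UQCRC2, a core subunit of complex III, at 0.23 ± 0.06 (adjusted p = 0.0117), and UQCRB, which contributes to the coenzyme Q site of complex III, at 0.21 ± 0.06 (adjusted p = 0.0314). COX7C had signals of 19706, 19119 and 20874 with MCT1 shRNA, against 16209, 16028 and 21185 with scramble shRNA, and UQCRB had 16943, 17640 and 17657, against 14638, 15478 and 22708. In both genes the third scramble array was above all 3 knockdown arrays and the other scramble arrays were below them. UQCRC2 had 9482, 9603 and 10174 with MCT1 shRNA, against 8116, 8483 and 9348 with scramble shRNA, with no overlap between the groups. Leaving out the second scramble array instead called 12 members, 3 higher and 9 lower, with a median of -0.13, and leaving out the first called 7, 2 higher and 5 lower. The shares over all genes in these fits are not given here. The 3 higher include COX7A1, which passed the filter on dim genes only through HS578T, so its count is no test of that gene. Its signals were 24.9, 16.4 and 9.59 with MCT1 shRNA, against 2.25, 21.7 and 4.22 with scramble shRNA. What part the RNA of the third array plays in these results was not tested.

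**Figure D2:**
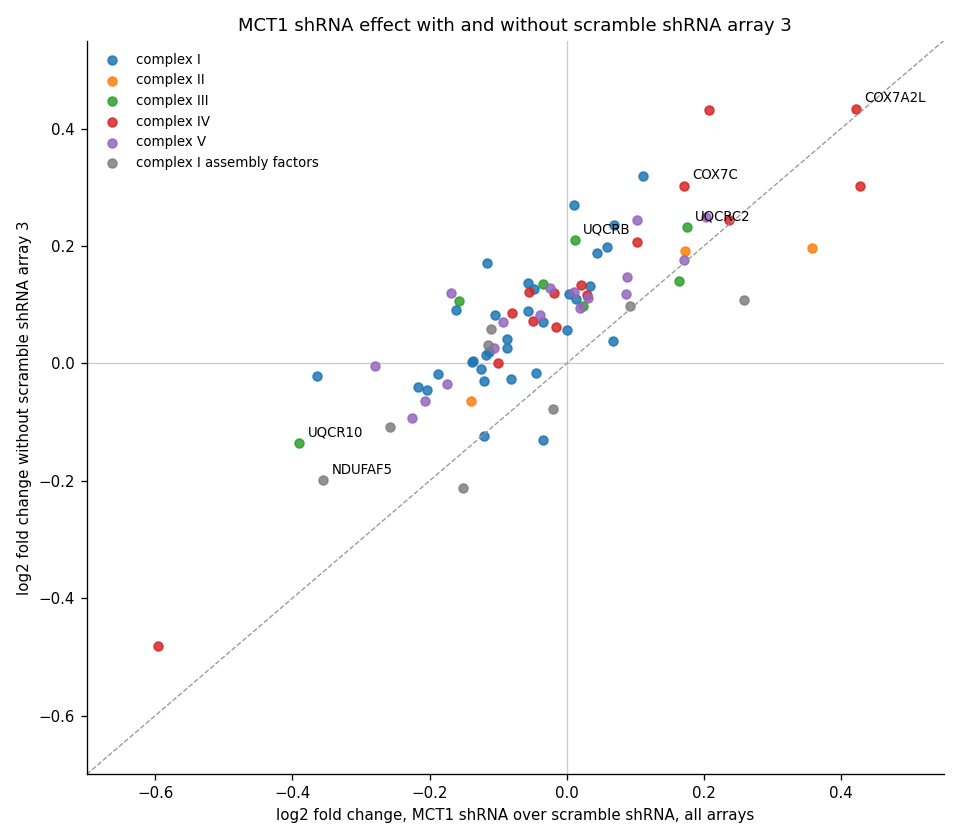
Log2 fold change of each of the 83 tested members, MCT1 shRNA over scramble shRNA in SUM149PT, with all arrays (horizontal axis) and without the third scramble array (vertical axis), coloured by complex. Most points lie above the diagonal; COX7A2L sits at 0.42 and 0.43, while UQCR10 and NDUFAF5 move closer to 0 on the vertical axis.

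By complex, the knockdown left complex I with 0 of 33 members called by limma, 10 of 33 above 0 and a median of -0.08, which was 0.04 without the third scramble array. Its 2 members with an unadjusted p under 0.05 were NDUFB3 (-0.36 ± 0.16) and NDUFS4 (-0.22 ± 0.10), both accessory subunits with values below 0. Without the third scramble array NDUFB3 was at -0.02 ± 0.08 and NDUFS4 at -0.04 ± 0.07. In complex II, SDHC, a membrane anchor, had a log2 fold change of 0.36 ± 0.13 (adjusted p = 0.0639), and SDHA, the flavoprotein that oxidises succinate, 0.17 ± 0.08 (adjusted p = 0.18). Without that array SDHC was at 0.20 and SDHA at 0.19. SDHA signals were 5225, 5740.4 and 6107 with MCT1 shRNA, against 4865, 5085 and 5173 with scramble shRNA, so that the groups did not overlap. Medians of the other complexes were 0.01 in complex III, 0.02 in complex IV, -0.02 in complex V and -0.11 over the assembly factors, and they were 0.14, 0.12, 0.11 and -0.02 without the third scramble array. In complex V, 0 of 17 passed limma's test and 3 had an unadjusted p under 0.05: ATP5F1B, the catalytic beta subunit (0.20 ± 0.09, adjusted p = 0.124), ATP5F1D, the delta subunit (0.17 ± 0.08, adjusted p = 0.169), and ATP5IF1, the inhibitor of the synthase (-0.23 ± 0.08, adjusted p = 0.0733). Leaving out the third scramble array gave 0.25 for ATP5F1B, 0.18 for ATP5F1D and -0.09 for ATP5IF1.

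Quantile normalization with all arrays called 9 of 83 members, 4 higher and 5 lower. Of all 14148 genes, 1021 were higher and 1210 lower in that fit. The members higher were COX7A2L (adjusted p = 2.15e-05), UQCRC2 (0.20, adjusted p = 0.00703), ATP5F1B (0.18, adjusted p = 0.0165) and SDHC (0.38, adjusted p = 0.0434). Those lower were UQCR10 (-0.35), NDUFAF5 (-0.32), NDUFAF4 (-0.24), ATP5F1E, the epsilon subunit (-0.27), and NDUFAB1, the mitochondrial acyl carrier protein that is also a complex I subunit (-0.15). Median centring of the arrays instead called 0 higher and 3 lower, and COX7A2L then had an adjusted p of 0.0761. With quantile normalization and without the third scramble array, 6 rose and 0 fell: COX7A2L, UQCRC2, ATP5F1B, NDUFB10 (0.33), NDUFA3 (0.30) and NDUFB2 (0.24), the last 3 being accessory subunits of complex I. Over all 14148 genes 876 were then higher and 919 lower. COX7A2L was thus called under each of these settings but median centring, while which other members were called, and how large their differences were, changed with the array left out and the scaling.

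Genes that build or regulate the complexes were described beside the subunits. Among 25 complex IV assembly factors, 5 fell after knockdown and 1 rose, with a median of -0.20, where 7.64% of all genes were lower and 7.22% higher. The counts of the lists that follow stand beside the same shares. COA6, which delivers copper to complex IV, had 2655.5, 3066 and 3343 with MCT1 shRNA, against 6000.4, 4973 and 7085 with scramble shRNA, a log2 fold change of -0.98 ± 0.13 (adjusted p = 8.82e-06). PNKD (-0.51), COA5 (-0.50), PET100 (-0.44) and CMC2 (-0.32) were the others that fell, and COX15, which makes heme A, rose (0.32). Of 11 further complex I assembly factors, DMAC1, needed for the distal part of the membrane arm, fell by 0.77 on the log2 scale (adjusted p = 1.29e-05), and COA1 fell by 0.51 on that scale (adjusted p = 0.000351). Both groups of COA6 arrays, and both of DMAC1, were separate, DMAC1 having 5457.5, 6438 and 5859.7 with MCT1 shRNA, against 9818, 9257 and 11306 with scramble shRNA. Without the third scramble array the log2 fold changes were -0.86 for COA6, -0.69 for DMAC1 and -0.39 for COA1, all still called, while COX15 was not (adjusted p = 0.0925), and the counts for complex IV assembly became 0 higher and 3 lower.

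In the other lists, UQCC3 (-0.56) and BCS1L (-0.32) fell among 6 complex III assembly factors, and FMC1 (-0.45) among 5 for complex V. Of 15 electron carriers and coenzyme Q genes, ETFDH, which passes electrons from fat oxidation to coenzyme Q, rose (0.43), and COQ4 (-0.38) and COQ5 (-0.36) fell. MTERF3 was the 1 of 13 genes of mitochondrial transcription that fell (-0.40). By limma, 0 of 4 complex II assembly factors and 0 of 7 genes of proton and nucleotide exchange were called, with unadjusted p under 0.05 for 1 and 2 of them. Without the third scramble array the 7 genes that had risen or fallen were still called, at -0.37 for UQCC3, -0.28 for BCS1L, -0.32 for FMC1, 0.47 for ETFDH, -0.26 for COQ4, -0.39 for COQ5 and -0.35 for MTERF3. UQCC1 (0.35), DMAC2L (0.40) and COQ8B (0.91) were then called higher as well. Of the 9 regulators of respiratory genes, PPARGC1A, a coactivator of mitochondrial biogenesis, had low signals of 156, 165 and 209 with MCT1 shRNA, against 32.6, 33.4 and 20.5 with scramble shRNA, all 3 knockdown arrays being above the scramble ones. It passed the filter on dim genes only through such groups of higher signal, so these levels are a description with no test.

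With AZD3965 for 24 h, the median member lay slightly above its DMSO value in the SUM lines and close to it in HS578T with the deposited scaling, and none passed limma's test in any line. In HS578T the median log2 fold change was 0.02 with 53 of 83 above 0, in SUM159PT 0.10 with 68 of 83, and in SUM149PT 0.14 with 73 of 83. Over all genes the medians were -0.02, 0.00 and 0.04 in the same lines. Quantile normalization brought the member medians to 0.00, 0.05 and 0.07, and median centring of the arrays gave 0.18, 0.19 and 0.08, so that neither the size of the shift nor the order of the lines was the same under each scaling. Without the third AZD3965 array of SUM159PT, on which the member median was 0.20, the median of that line was 0.05.

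The count of members called by limma was 0 of 83 in HS578T, where 0.304% of all genes were called and 1 member had an unadjusted p under 0.05. It was 0 of 83 in SUM159PT, where 0% of all genes were called and 11 members had an unadjusted p under 0.05, all higher. It was 0 of 83 in SUM149PT, where 0.0283% of all genes were called. There 26 members had an unadjusted p under 0.05, 24 higher and 2 lower, and after quantile normalization 19, 14 higher and 5 lower. Of all 14141 genes, 1171 had an unadjusted p under 0.05 in HS578T, 954 in SUM159PT and 2330 in SUM149PT. The 2330 were 1230 higher and 1100 lower. Averaged over the lines the count called was again 0 of 83, with 0.0283% of all genes called and a median of 0.09. An unadjusted p under 0.05 was found there for 24 members and for 2048 of all genes. The moderated F test of a difference between the lines called 0 of 83 members by limma, with 0.12% of all genes called. An unadjusted p under 0.05 was found there for 6 members and 1412 genes. Without the third scramble array the count called stayed 0 of 83 in each line and averaged. An unadjusted p under 0.05 was then found for 3 members in HS578T, 23 in SUM159PT, 39 in SUM149PT and 42 averaged. Over all 14141 genes these counts were 1437, 1233, 2767 and 2507.

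With the deposited scaling, the complex V members had the most values with an unadjusted p under 0.05 in SUM149PT, 10 of 17 and all higher. Over all genes 1230 of 14141 were higher with such a p and 1100 lower. Over all 83 members the count depended on the scaling, with 24 higher here and 14 after quantile normalization. Complex IV had 6 of 15, all higher, and complex I had 5 of 33 higher and 2 lower. ATP5F1B had signals of 17485, 20258 and 20662 with AZD3965, against 14607, 17097 and 15410 with DMSO. The groups did not overlap, and the log2 fold change of 0.31 ± 0.09 (95% interval 0.13 to 0.49) had an adjusted p of 0.143. ATP5F1C, the gamma subunit of the rotating stalk, had 17225, 20177 and 22489, against 16554, 17772 and 15301, with the lowest AZD3965 array below the highest DMSO array (0.27 ± 0.09, adjusted p = 0.17). NDUFV1, the subunit of complex I that takes electrons from NADH, had 7515, 8773 and 8772, against 6717, 7339 and 6508, with no overlap (0.28 ± 0.10, adjusted p = 0.173). Leaving out the first AZD3965 array of SUM149PT called 3 members, ATP5F1B, ATP5F1C and ATP5MG, which were named after these values were seen.

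In SUM159PT the members of smallest p were ATP5F1A, the alpha subunit of the synthase (0.22 ± 0.09), NDUFA13 (0.32 ± 0.12) and NDUFA7 (0.28 ± 0.12), each with an adjusted p of 0.728. ATP5F1A had signals of 24900, 26398 and 30193 with AZD3965, against 22572, 25298 and 21845 with DMSO, and the lowest AZD3965 array lay below the highest DMSO array. In HS578T they were COX6A2, a dim muscle isoform (-0.67 ± 0.26, adjusted p = 0.438), NDUFAF6 (-0.14 ± 0.07, adjusted p = 0.607) and COX4I2 (0.41 ± 0.21, adjusted p = 0.625). Averaged over the lines they were ATP5MC3, which encodes the c subunit of the rotor (0.14 ± 0.05), ATP5MG (0.16 ± 0.05) and COX4I1 (0.15 ± 0.05), each with an adjusted p of 0.228. For the difference between lines they were ATP5F1B (adjusted p = 0.439), ATP5PB (adjusted p = 0.482) and ATP5F1A (adjusted p = 0.484).

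**Figure D3:**
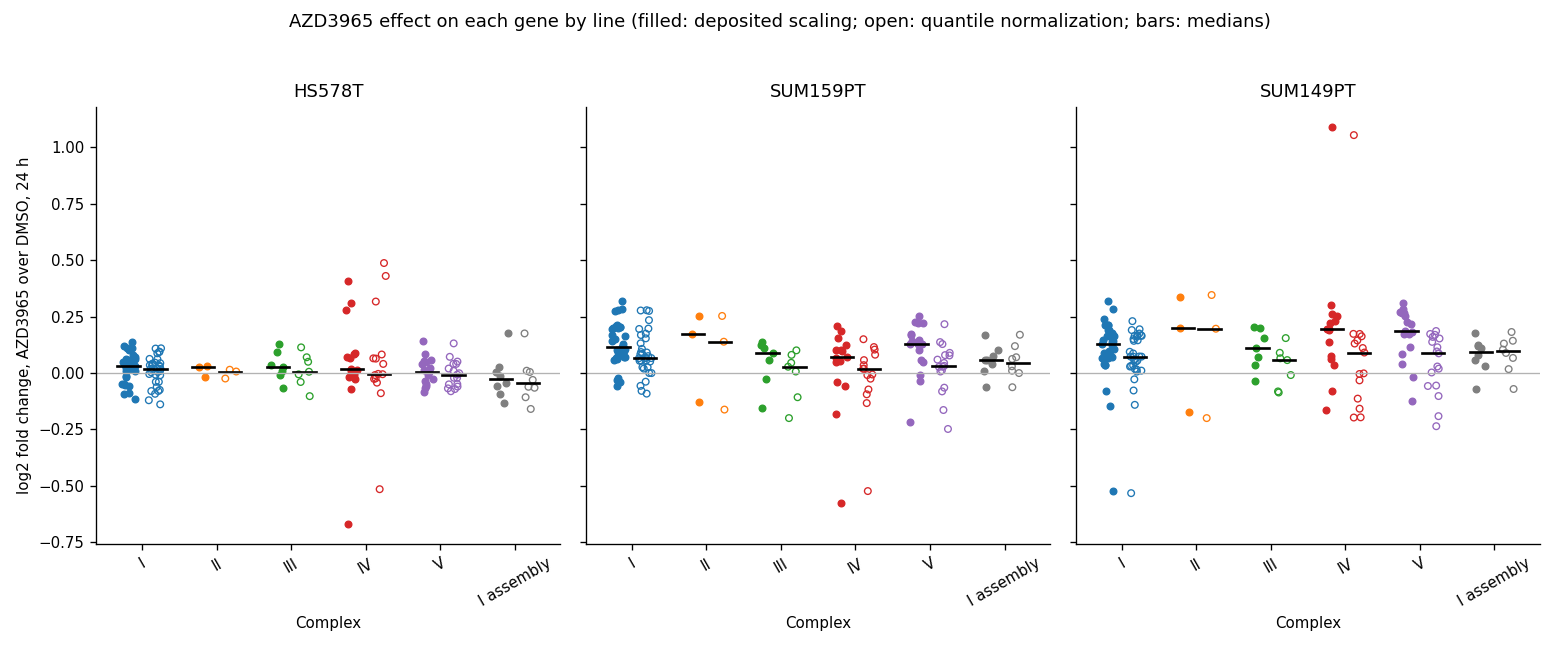
Log2 fold change of each tested member, AZD3965 over DMSO at 24 h, by complex, with 1 panel per line; filled points are the deposited scaling, open points are after quantile normalization and bars are medians. The medians of complex V are 0.00 in HS578T, 0.13 in SUM159PT and 0.19 in SUM149PT with the deposited scaling, and 0.03 and 0.09 in the SUM lines after quantile normalization.

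The medians by complex followed the same pattern. In SUM149PT they were 0.13 in complex I, 0.20 in complex II, 0.11 in complex III, 0.19 in complexes IV and V and 0.09 over the assembly factors. After quantile normalization they were 0.07, 0.20, 0.06, 0.09, 0.09 and 0.10. In HS578T they ran between -0.03 and 0.03. None of the lists of assembly factors, carriers, exchange genes, mitochondrial transcription genes and regulators had a member called by limma in any of the 3 lines. Of their 95 genes, an unadjusted p under 0.05 was found for 12 in HS578T, 3 in SUM159PT and 19 in SUM149PT. These counts stand beside 1171, 954 and 2330 of all 14141 genes.

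The knockdown and the inhibitor were set against each other in SUM149PT, where each has controls of its own. The median member was lower by 0.17 (log2) after knockdown than after inhibition when each was taken over its control, with 14 of 83 differences above 0, against -0.04 over all genes. Of the 83, 0 were called higher and 2 lower, NDUFAF5 (-0.53 ± 0.15, adjusted p = 0.0233) and UQCR10 (-0.59 ± 0.17, adjusted p = 0.0339), where 4.94% of all genes were lower. Without the third scramble array the same 2 were called, at -0.38 ± 0.12 and -0.34 ± 0.09, and the median was -0.04. With quantile normalization as well NDUFAF5 was not (adjusted p = 0.0738). Both calls were lost without DMSO array 1 or 3, AZD3965 array 3 or knockdown array 1, and UQCR10 also without AZD3965 array 2 or knockdown array 3. On all 3 AZD3965 arrays both genes were above all 3 DMSO arrays: NDUFAF5 had 3400.3, 3567 and 3866, against 3069.5, 3363 and 3135, and UQCR10 had 8576, 8949 and 9065, against 7354, 8018 and 7703. After quantile normalization COX7A2L was called as well, higher by 0.29 (adjusted p = 0.0417).

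Between the lines under DMSO, 55 of 83 members were called for HS578T minus SUM149PT, where 9079 of 14141 genes were. The counts were 58 and 8207 for HS578T minus SUM159PT, and 43 and 8397 for SUM159PT minus SUM149PT. HS578T against SUM149PT had 5 members higher and 50 lower of 83, where 30.4% of all genes were higher and 33.8% lower, and a median of -0.33, against -0.02 over all genes. HS578T against SUM159PT had 11 higher and 47 lower, where 27.3% of all genes were higher and 30.7% lower, and a median of -0.39, against -0.03. SUM159PT against SUM149PT had 16 higher and 27 lower, where 29.3% of all genes were higher and 30% lower, and a median of -0.08, against 0.02. After quantile normalization the counts were 8 higher and 47 lower, 14 and 49, and 22 and 29, in the same order. Without the third scramble array they were 8 and 53, 12 and 53, and 23 and 29. All 14141 genes then gave 4403 and 4921, 3967 and 4509, and 4305 and 4380. Each pair of these comparisons shares the arrays of 1 line, and the members counted higher in HS578T include COX7A1, which passed the filter on dim genes only through that line.

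**Figure D4:**
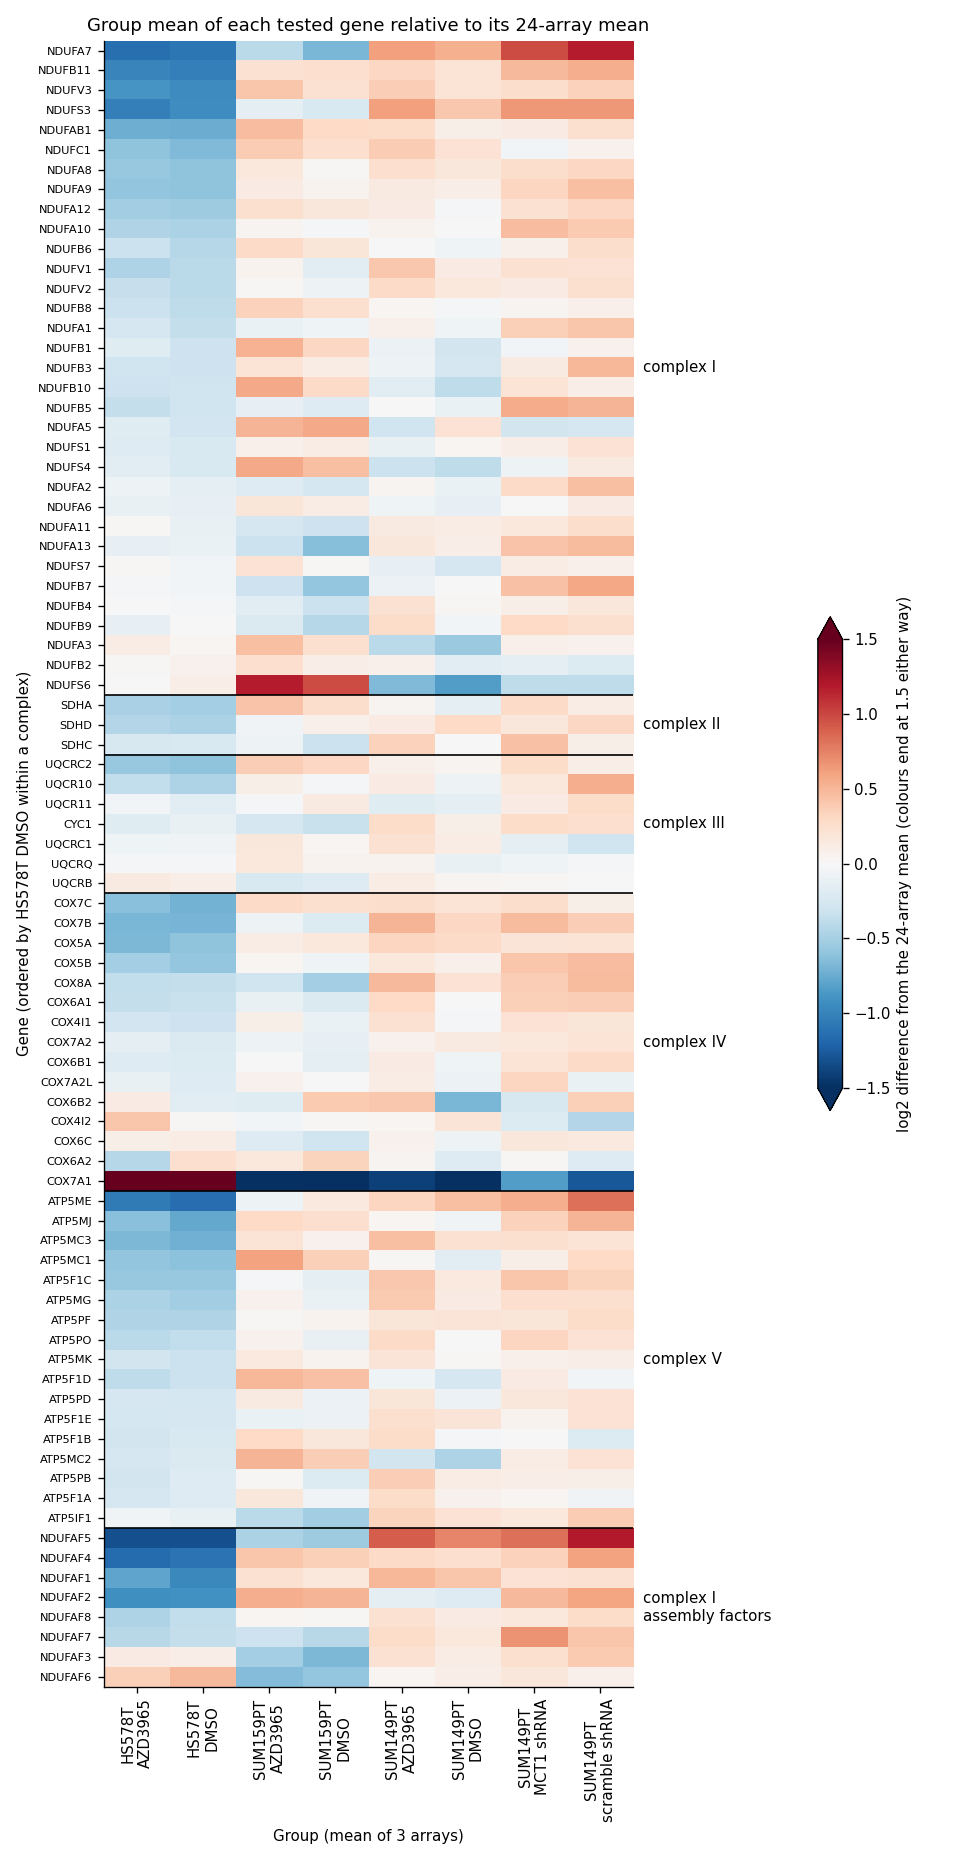
Mean log2 level of each of the 83 tested members in the 8 groups, relative to the gene's own mean over 24 arrays, with genes grouped by complex and colours ending at 1.5 in either direction. The HS578T columns are below the mean for most genes, with COX7A1, NDUFAF6 and a few others above it.

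Called lower in HS578T than in both other lines were 36 members, where 19.5% of all genes were: 15 in complex I, 2 in complex II, 2 in complex III, 4 in complex IV, 8 in complex V and 5 assembly factors. Called higher than in both were 2, NDUFAF6 and COX7A1, where 17.1% of all genes were. COX7A1 passed the filter on dim genes only through HS578T, so its place in this count is a description with no test. HS578T lay between the SUM lines, called in opposite directions, for 4 members, NDUFS6, CYC1, ATP5IF1 and ATP5MC2, where 8.26% of all genes did. For 9 members no pair of lines differed by limma's test: ATP5PD, COX4I2, COX6A2, COX6B1, NDUFA2, NDUFB2, NDUFS7, UQCR11 and UQCRQ.

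**Figure D5:**
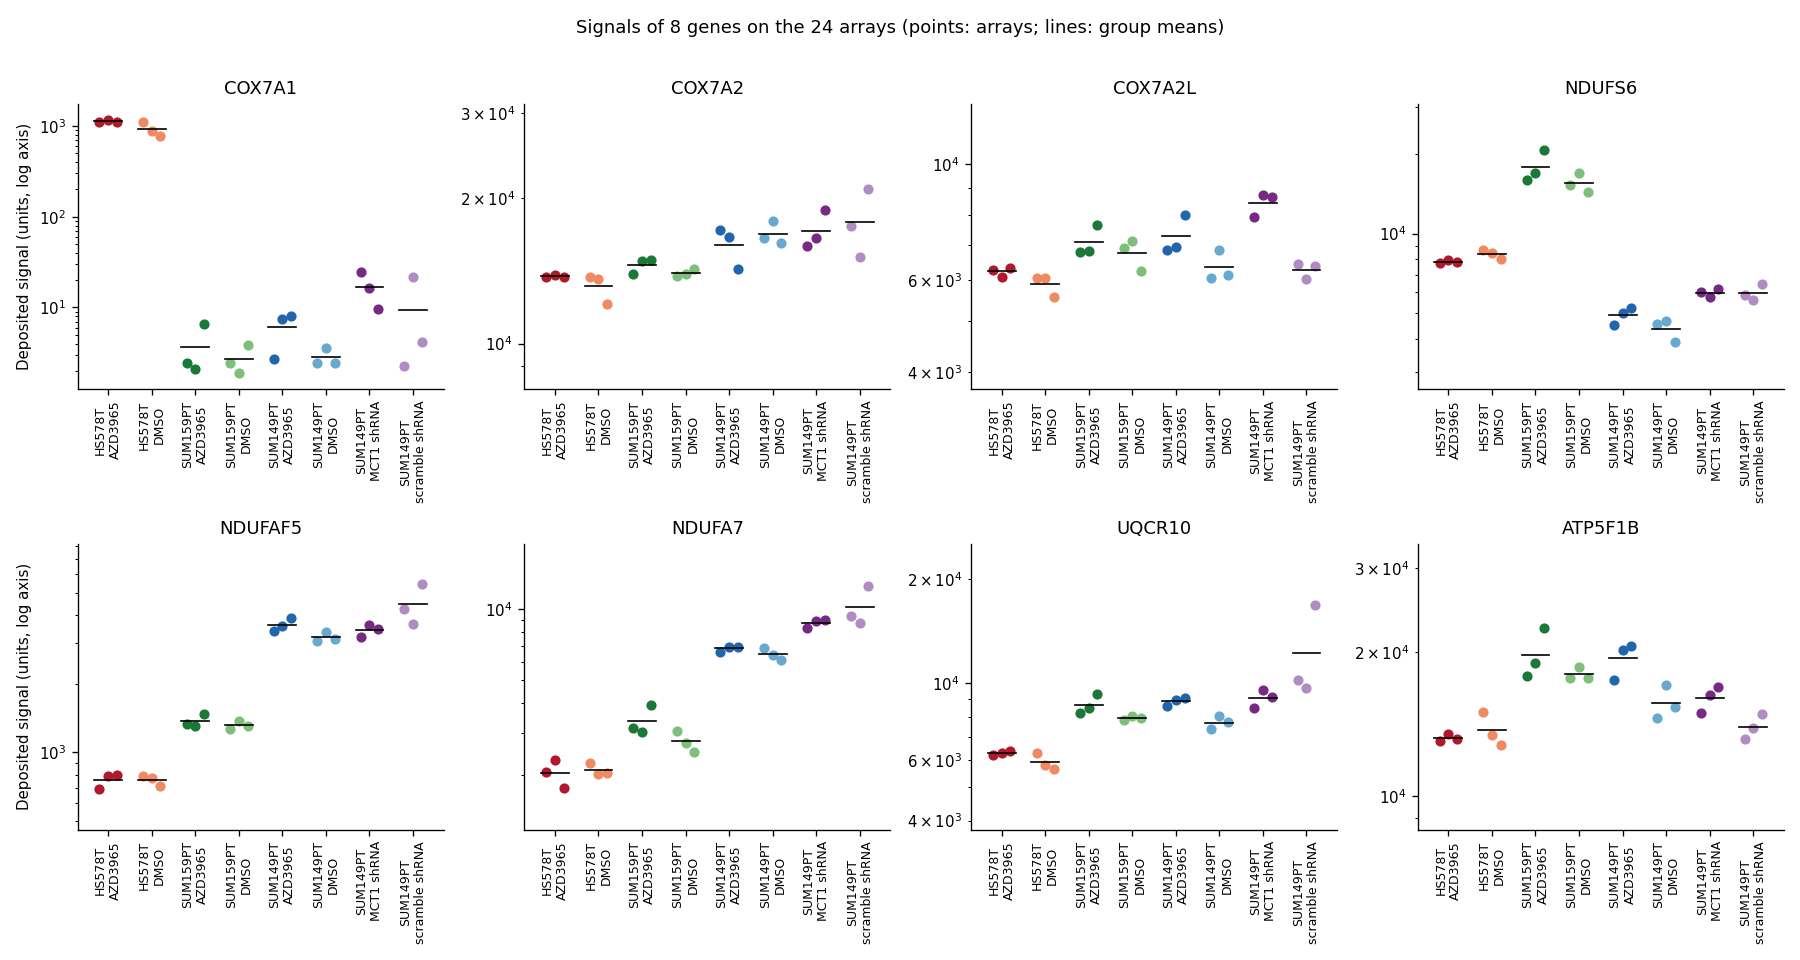
Signal of 8 members on each of the 24 arrays (log axis), with the groups from HS578T with AZD3965 on the left to SUM149PT with scramble shRNA on the right. COX7A1 is at 770 to 1175 in HS578T and under 25 elsewhere, NDUFS6 is highest in SUM159PT, and NDUFA7 and NDUFAF5 are lowest in HS578T.

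Complex I had 2 members higher and 17 lower in HS578T than in SUM149PT, 4 and 22 against SUM159PT, and 9 and 9 between SUM159PT and SUM149PT. NDUFS6, a zinc-binding accessory subunit, had 8682, 8439 and 7996 in HS578T, 15187, 16882 and 14374 in SUM159PT and 4544.5, 4704 and 3892 in SUM149PT under DMSO. None of the 3 lines overlapped, and the log2 differences were 0.94 ± 0.09, -0.88 ± 0.09 and 1.82 ± 0.09 for HS578T minus SUM149PT, HS578T minus SUM159PT and SUM159PT minus SUM149PT (adjusted p = 2.22e-09, 8.87e-09 and 1.62e-14). NDUFA7, another accessory subunit, followed a different order, with 2234, 2021.5 and 2028 in HS578T, 3062, 2733 and 2491 in SUM159PT and 6876, 6422 and 6102.5 in SUM149PT. NDUFS3, a core subunit of the arm that carries the redox centres, had 3244, 2699.8 and 2776, 4746, 4881 and 4556 and 7284, 7672 and 7111 in the same lines, again with separate groups, HS578T lowest and SUM149PT highest. NDUFB11, a membrane arm subunit, had 1905, 1941 and 2068 in HS578T and did not separate the SUM lines, with 5032, 4888 and 4477 in SUM159PT and 4584, 4667 and 4748 in SUM149PT.

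The differences were smaller in NDUFV1, where electrons enter complex I. It differed by -0.53 for HS578T minus SUM149PT (adjusted p = 4.61e-05), -0.25 for HS578T minus SUM159PT (adjusted p = 0.0316) and -0.28 for SUM159PT minus SUM149PT (adjusted p = 0.0172). NDUFS1, the largest core subunit, had 2771, 2605 and 2744 in HS578T, 3447, 3433 and 3378 in SUM159PT and 3314, 3003 and 3406.5 in SUM149PT, and was lower in HS578T than in SUM159PT (-0.34, adjusted p = 0.000145). The other complex I members of smallest p below SUM149PT in HS578T were NDUFV3 (-1.15) and NDUFA8 (-0.77), and the 1 other above it was NDUFA3 (0.59). Below SUM159PT they were NDUFB11 (-1.28), NDUFV3 (-1.16), NDUFAB1 (-1.05) and NDUFA12 (-0.70), and above it NDUFA13 (0.54), NDUFB7 (0.55), NDUFB9 (0.43) and NDUFB4 (0.30). SUM159PT exceeded SUM149PT in NDUFS4 (0.84), NDUFA3 (0.80), NDUFB10 (0.67) and NDUFB1 (0.59), and was below it in NDUFA7 (-1.23), NDUFS3 (-0.64), NDUFA13 (-0.74), NDUFB7 (-0.58) and NDUFA11 (-0.42).

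In complex II, SDHA was lower in HS578T than in both SUM lines, with 3397, 3281 and 3130.4 in HS578T, 5752, 5783.5 and 5189 in SUM159PT and 4244, 4537 and 3801 in SUM149PT. The 3 lines did not overlap, and the log2 differences were -0.35 ± 0.08 for HS578T minus SUM149PT (adjusted p = 0.000618), -0.77 ± 0.08 for HS578T minus SUM159PT (adjusted p = 2.54e-08) and 0.41 ± 0.08 for SUM159PT minus SUM149PT (adjusted p = 0.000148). SDHD, a membrane anchor, had 4137, 4667 and 4892 in HS578T, 6447, 6541 and 6979 in SUM159PT and 7598, 7354 and 8447 in SUM149PT. HS578T was below both, and SUM159PT minus SUM149PT was -0.23 (adjusted p = 0.0288). SDHC, the other anchor, was not called for HS578T minus SUM149PT (-0.23, adjusted p = 0.116) or HS578T minus SUM159PT (0.10, adjusted p = 0.54), and was lower in SUM159PT than in SUM149PT (-0.33). With all probe sets of a gene averaged, the SDHD difference between HS578T and SUM149PT was 0.02, so that it rests on the probe set chosen.

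Complex III divided by gene. UQCRC2 had 5115, 5316 and 5500.4 in HS578T, 9659, 10120 and 10136 in SUM159PT and 7992, 8517 and 8394 in SUM149PT, separate in all 3 lines (-0.64, adjusted p = 2.03e-09, for HS578T minus SUM149PT and -0.91, adjusted p = 6.71e-12, for HS578T minus SUM159PT). CYC1, the cytochrome c1 that hands electrons to cytochrome c, had 10679, 9410.5 and 10477 in HS578T, 8302, 8891 and 8993 in SUM159PT and 11481, 11908 and 11602 in SUM149PT, with HS578T between the SUM lines (-0.20, 0.22 and -0.42 for HS578T minus SUM149PT, HS578T minus SUM159PT and SUM159PT minus SUM149PT). UQCRB was higher in HS578T than in SUM159PT (0.29), and SUM159PT was lower than SUM149PT (-0.24). UQCRC1, the other core subunit, was lower in HS578T than in SUM149PT (-0.17), and SUM159PT minus SUM149PT for UQCRC2 was 0.26. UQCR10 was lower in HS578T than in SUM149PT (-0.38) and SUM159PT (-0.43) by the probe set used, while its other probe set differed by 0.01 and 0.18.

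Complex IV carried the tissue isoforms. COX7A1, the isoform known from heart and skeletal muscle, had 1119, 1175 and 1114 in HS578T with AZD3965 and 1114, 891 and 769.8 with DMSO, against 2.43, 1.89 and 3.82 in SUM159PT and 2.44, 3.59 and 2.45 in SUM149PT under DMSO. In every group of the SUM lines its signals were 24.9 or lower. The gene passed the filter on dim genes only through HS578T, and its DMSO signals in the SUM lines lie far under the offset of 16 added before taking logs, which sets the size of any fold, so its levels are a description with no test. COX7A2, the isoform most tissues use, had 13722, 13608 and 12072 in HS578T, 13811, 13947 and 14288 in SUM159PT and 16543, 17931 and 16136 in SUM149PT, a far narrower spread. COX7A2L was lower in HS578T than in SUM159PT (-0.20, adjusted p = 0.026).

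Of the other isoform pairs, COX4I1, the common form of subunit 4, had signals of 12073 to 20054 over the 24 arrays, and COX4I2, the form known from lung and from low oxygen, 72.3 to 184. COX6A1 ranged between 13241 and 27755, COX6A2 between 34.3 and 108, COX6B1 between 6079 and 11342 and COX6B2 between 7.14 and 122. COX6B2, a testis isoform, was called higher in SUM159PT than in SUM149PT (1.09 ± 0.45), yet its signals overlapped, with 44.3, 50.4 and 122 against 14.3, 7.14 and 65.9 under DMSO, and on the AZD3965 arrays the difference was -0.58. COX7B2 stayed between 5.6 and 38.8 and COX8C between 0.994 and 27.9, both untested. COX8A, the common form of subunit 8, had 11472, 10118 and 10077 in HS578T, 9078, 10742 and 8758 in SUM159PT and 14985, 17203 and 15331 in SUM149PT, where only SUM149PT stood apart (-0.58 for HS578T minus SUM149PT and -0.74 for SUM159PT minus SUM149PT).

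Among the remaining complex IV subunits, COX5A had 9439, 12088 and 10448 in HS578T, 17472, 18258 and 18114 in SUM159PT and 19360, 20233 and 19443 in SUM149PT, with log2 differences of -0.89 ± 0.08 for HS578T minus SUM149PT (adjusted p = 1.32e-09) and -0.76 ± 0.08 for HS578T minus SUM159PT (adjusted p = 2.99e-08). HS578T was below both SUM lines on every array. COX5B, which binds zinc, was lower in HS578T than in SUM149PT (-0.65) and SUM159PT (-0.51). COX7B had 10377, 11159 and 10029 in HS578T, 14165, 15382 and 14810 in SUM159PT and 20886, 22256 and 20452 in SUM149PT, separate in all 3 lines. COX7C had 10247, 10355 and 9732 in HS578T, with the SUM lines overlapping at 19078, 20394 and 19293 in SUM159PT and 18524, 19852 and 18808 in SUM149PT. COX6C was higher in HS578T than in SUM159PT (0.40), and SUM159PT was below SUM149PT in COX6C (-0.21) and COX7A2 (-0.27).

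Complex V was lower in HS578T for 13 members against SUM149PT and 11 against SUM159PT, and higher for 1 in each comparison. ATP5ME, the e subunit at which the synthase dimerises, had 3354, 3981 and 3981 in HS578T, 9455, 8472.5 and 9770 in SUM159PT and 10840, 10751 and 12624 in SUM149PT, separate in all 3 lines (-1.59 ± 0.16, adjusted p = 7.32e-09, and -1.29 ± 0.16, adjusted p = 3.17e-07, for HS578T minus SUM149PT and minus SUM159PT). The catalytic head moved less: ATP5F1A differed by -0.25 (adjusted p = 0.0129) and -0.14 (adjusted p = 0.17) in those comparisons. ATP5F1B differed by -0.19 (adjusted p = 0.0564) and -0.39 (adjusted p = 0.00043). The other members of smallest p below SUM149PT in HS578T were ATP5F1C (-0.71), ATP5MG (-0.64) and ATP5PF (-0.65), and below SUM159PT ATP5F1D (-0.76) and ATP5MJ (-1.02). SUM159PT exceeded SUM149PT in ATP5F1D (0.69) and was below it in ATP5PB (-0.32), ATP5F1E (-0.28), ATP5F1C (-0.29) and ATP5MG (-0.22).

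The 3 genes for the c subunit of the rotor, which encode the same mature protein, each had their own order of lines. ATP5MC1 had 3071, 2499 and 2529.7 in HS578T, 5169, 5763 and 4928 in SUM159PT and 3761, 3749 and 3567 in SUM149PT, with HS578T lowest and SUM159PT highest. ATP5MC2 had 6611, 6609 and 6251, 9698, 10735 and 8807 and 5231, 5607 and 5463 in the same lines, so that SUM149PT was lowest. ATP5MC3 had 9830.2, 9829 and 9947, 16384, 18223 and 16721 and 18663, 19758 and 18976, with HS578T lowest. HS578T minus SUM149PT was -0.46 for ATP5MC1, 0.26 for ATP5MC2 and -0.95 for ATP5MC3, all called, and SUM159PT minus SUM149PT was 0.51 for ATP5MC1 and 0.84 for ATP5MC2. ATP5IF1, which stops the synthase from running backwards, had 3199.9, 3314 and 2912 in HS578T, 2335.5, 2496.5 and 2209 in SUM159PT and 3862, 4001 and 3954 in SUM149PT. HS578T minus SUM149PT was -0.33 ± 0.08 (adjusted p = 0.00152), but 2 further probe sets of the gene differed by 0.29 and 0.94, the opposite way, and only HS578T minus SUM159PT (0.42 ± 0.08) and SUM159PT minus SUM149PT (-0.74 ± 0.08) had the same sign on all 3 probe sets.

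The 8 NDUFAF genes had the widest line differences among the groups of members by their medians, -0.62 for HS578T minus SUM149PT and -0.59 for HS578T minus SUM159PT, while 11 further complex I assembly factors had medians of 0.03 and 0.08. NDUFAF5 had 787, 770.1 and 709.8 in HS578T, 1269, 1374 and 1308 in SUM159PT and 3069.5, 3363 and 3135 in SUM149PT, with log2 differences of -2.06, -0.79 and -1.27 for HS578T minus SUM149PT, HS578T minus SUM159PT and SUM159PT minus SUM149PT (adjusted p = 1.81e-14, 5.41e-07 and 1.96e-10). NDUFAF4, which also helps to build the membrane arm, had 1836, 1842 and 1819 in HS578T, with the SUM lines overlapping at 4744, 5384 and 5145 in SUM159PT and 4580.5, 4741 and 4809 in SUM149PT. NDUFAF6 ran the other way, with 4407.5, 4254 and 4395 in HS578T, 1977, 2064 and 2146 in SUM159PT and 3340, 3219.5 and 3412 in SUM149PT. NDUFAF1 (-1.38), NDUFAF2 (-0.71) and NDUFAF7 (-0.52) were lower in HS578T than in SUM149PT. Against SUM159PT, NDUFAF1 (-1.12), NDUFAF2 (-1.41) and NDUFAF8 (-0.39) were lower and NDUFAF3 (0.77) higher. SUM159PT exceeded SUM149PT in NDUFAF2 (0.70) and was below it in NDUFAF3 (-0.78), NDUFAF6 (-0.68), NDUFAF7 (-0.57) and NDUFAF1 (-0.26).

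A number of line calls were narrow, being lost after quantile normalization or without a single array. For HS578T minus SUM149PT these were CYC1, NDUFA1 (-0.29) and UQCRC1, which quantile normalization moved to -0.11, -0.22 and -0.11, and ATP5F1A, COX4I1 (-0.28), COX6A1 (-0.33) and NDUFB5 (-0.20), which lost the call without at least 1 array. For HS578T minus SUM159PT they were COX7A2L, CYC1, NDUFB3 (-0.42), NDUFV1 and UQCRB. For SUM159PT minus SUM149PT they were ATP5MG, COX6B2, COX6C, COX7A2, NDUFA12 (0.20), NDUFAF1, NDUFB6 (0.25), NDUFB8 (0.25), NDUFV1, SDHC, SDHD and UQCRB. None of them changed sign in those settings. Averaging all probe sets of a gene did turn signs: those of ATP5IF1, ATP5PB, NDUFS1 and SDHD for HS578T minus SUM149PT, of NDUFA6 and NDUFB4 for HS578T minus SUM159PT, and of NDUFV1, SDHC, SDHD and UQCRB for SUM159PT minus SUM149PT.

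Likeness of pattern was taken as Pearson's r over the 8 group means, which share lines and so are not independent. NDUFA7 was most like NDUFAF5 (r = 0.985) and COX7A2 (r = 0.980), and ATP5ME was most like ATP5PF (r = 0.991) and SDHD (r = 0.985). SDHA was most like UQCRC2 (r = 0.969) and ATP5MC1 (r = 0.961), and UQCR10 was most like NDUFA9 (r = 0.938) and COX5B (r = 0.937). COX7A1 had no close partner, NDUFAF6 being nearest (r = 0.676). Where a called member had further probe sets, these had the same sign in 34 of 46 cases for HS578T minus SUM149PT, 39 of 46 for HS578T minus SUM159PT and 28 of 37 for SUM159PT minus SUM149PT.

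By chromosome, members followed the other genes of their chromosome in some cases and not in others. All 5 members on chromosome 8 (NDUFB9, NDUFAF6, CYC1, UQCRB and COX6C) were higher in HS578T than in SUM159PT, with a median of 0.40, and the 513 tested genes of that chromosome had a median of 0.50, with 58.3% of them higher. On chromosome 5, 4 of 7 members were higher and 0 lower in SUM159PT than in SUM149PT by limma, with a median of 0.41, against 0.34 over 656 genes, of which 48.6% were higher. On chromosome 11 all 5 members (NDUFS3, NDUFV1, SDHD, COX8A and ATP5MG) were lower in HS578T than in SUM149PT, with a median of -0.64, against -0.24 over 813 genes. Elsewhere members and genes parted: for HS578T minus SUM149PT the medians were 0.05 over the members and 0.46 over all genes on chromosome 8, -0.03 and 0.28 on chromosome 5, and -0.03 and 0.26 on chromosome 19, which holds 11 members. For HS578T minus SUM159PT on chromosome 5 they were -0.77 and -0.07. Over the 7 chromosomes with at least 5 tested members, the members' median was below that of all genes on 7 for HS578T minus each SUM line, and on 4 for SUM159PT minus SUM149PT. What part chromosomal position plays in the members' differences was not tested.

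The partners of the subunits also differed between lines, and their counts stand beside 30.4% of all genes higher and 33.8% lower for HS578T minus SUM149PT and 27.3% and 30.7% for HS578T minus SUM159PT. Of 25 complex IV assembly factors, 0 were higher and 16 lower in HS578T than in SUM149PT by limma (median -0.58; 16 with an unadjusted p under 0.05), and 3 were higher and 14 lower than in SUM159PT (median -0.38). Genes of electron carriers and coenzyme Q synthesis had 1 higher and 8 lower of 15 against SUM149PT and 0 higher and 11 lower against SUM159PT. Genes of mitochondrial transcription had 2 higher and 8 lower of 13, and 0 higher and 10 lower, in the same comparisons. TFAM, which packages and transcribes mitochondrial DNA, was lower in HS578T than in SUM149PT (-0.33, adjusted p = 0.0195) and SUM159PT (-0.53, adjusted p = 0.000509). The further complex I assembly factors were split, with 4 higher and 4 lower of 11 in each comparison and medians of 0.03 and 0.08. Of 5 complex V assembly factors, 0 were higher and 2 lower than in SUM149PT by limma, 3 having an unadjusted p under 0.05, while 3 were higher and 1 lower than in SUM159PT, with a median of 0.72. Complex II assembly had 3 of 4 lower than in SUM149PT and 2 than in SUM159PT, complex III assembly 3 of 6 lower in each comparison and 1 higher than in SUM149PT, and proton and nucleotide exchange 5 of 7 lower in each.

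Of the 9 regulators, 1 was higher and 4 lower in HS578T than in SUM149PT, and 0 were higher and 6 lower than in SUM159PT by limma, 7 having an unadjusted p under 0.05. ESRRA, a nuclear receptor that acts on respiratory genes, had 576, 609.7 and 574 in HS578T, 1001, 986 and 1094 in SUM159PT and 1453, 1349 and 1398 in SUM149PT, separate in all 3 lines (-1.23, adjusted p = 4.16e-10, for HS578T minus SUM149PT and -0.79 for HS578T minus SUM159PT). PPARGC1B and PPRC1, relatives of PPARGC1A, were lower in HS578T than in SUM149PT (-1.56 and -0.66) and SUM159PT (-1.63 and -1.05). PPARGC1A itself, the 1 counted as higher, had low signals of 24.4, 18.9 and 41.7 in HS578T, 51.7, 39.7 and 27.3 in SUM159PT and 6.02, 3.79 and 23.1 in SUM149PT. HS578T overlapped with both SUM lines, and the gene passed the filter on dim genes only through groups of higher signal. Its levels are a description with no test. NRF1 was not called for HS578T minus SUM149PT (0.23, adjusted p = 0.0817).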

How the data were processed

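Gene expression was measured on 24 Affymetrix arrays, 3 in each of 8 groups. The deposited values are linear signal intensity per probe set, made with MAS5 per the submitters' processing notes (version not given in the sources used here), and every array had a 2% trimmed mean of 500.1. Of 54675 probe sets, 41097 had 1 gene symbol, 1801 several and 11777 none; the probe set of highest mean log2 signal was kept for each of 19775 genes. From these, log2(signal + 16) was fitted in R 4.3.3 with limma 3.58.1 as 8 group means with a trended empirical Bayes step (16 residual and 6.52 prior degrees of freedom), and fold changes are on that scale, which understates those of dim genes. Genes under the 40th percentile of mean log2 signal (5.58) were left out, which kept 14141 genes (14148 after quantile normalization), and a call is a Benjamini-Hochberg adjusted p below 0.05 over them.

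The members and the lists of partner genes were chosen with earlier results of these data known. Named are, per comparison and complex, up to 5 called members each way by smallest p, or the 3 of smallest p where none was called; isoform pairs, catalytic members, the members of highest and lowest mean in each complex, and those whose call is lost under quantile normalization or without 1 array. Alternatives were quantile normalization, median centring, offsets of 1 and 64, no filter and a 60th percentile filter, the mean of probe sets, only the groups compared, array weights, a replicate block and leaving out each array. The tests were checked on simulated data. The main fit did not pair arrays by replicate number. The correlations of same-numbered deviations from the group means were -0.13 to 0.08, which cannot show whether such arrays were handled together. Promoter windows of 300 bases came from RefSeq. The number of arrays limits the precision. The gene targeted by the shRNA is not reported here.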

Additional observations from a re-analysis of the deposited data

How the results depend on the processing

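The line differences held best. Across all settings run, 37 of 55 called members kept direction and call for HS578T minus SUM149PT, 44 of 58 for HS578T minus SUM159PT and 24 of 43 for SUM159PT minus SUM149PT, against 0 of 3 for the MCT1 shRNA effect and 0 of 2 for its difference from the AZD3965 effect. The count of members called after MCT1 shRNA, 3 in the report, was 9 with quantile normalization, 5 with a 60th percentile filter, 6 with the mean of probe sets, 1 with only the groups compared, 6 with array weights, 5 with the replicate block, and 6 with quantile normalization and without the third scramble array. The replicate block (count 5) added NDUFAF4 and UQCRC2 and moved no other count by more than 1.5 times. Leaving out single arrays gave counts of 1 to 12 and member medians of -0.13 to 0.0918. Without the second scramble array 12 were called, 3 higher (the dim COX7A1 among them) and 9 lower, and without the first 7, 2 higher and 5 lower. The median was -0.15 with median centring, 0.0462 with array weights and 0.052 with quantile normalization and without the third scramble array. Median centring moved the median of all genes by -0.12 for the MCT1 shRNA effect, 0.14 for AZD3965 in HS578T, and -0.12 for HS578T minus either SUM line.

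For AZD3965, median centring gave member medians of 0.18 in HS578T and 0.19 in SUM159PT. Array weights called 1 member in SUM149PT, ATP5F1B. Leaving out single arrays gave counts of 0 to 3 and medians of 0.12 to 0.17 in SUM149PT, counts of 0 in HS578T and SUM159PT with medians of -0.01 to 0.03 and 0.05 to 0.13, and 0 averaged over lines with medians of 0.08 to 0.10. The F test called 0 without any single array. For the shRNA effect minus the AZD3965 effect, the median was -0.0817 with quantile normalization and -0.00083 with quantile normalization and without the third scramble array. Its count was 0 with median centring, the mean of probe sets or only the groups compared, 4 with array weights and 0 to 9 without single arrays, with medians of -0.27 to -0.0428.

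For HS578T minus SUM149PT, the median was -0.43 with median centring, -0.20 with the mean of probe sets and -0.49 with AZD3965 arrays in place of DMSO arrays, and without single arrays counts were 50 to 55 and medians -0.36 to -0.30. For HS578T minus SUM159PT it was -0.48 with median centring, and without single arrays counts were 54 to 58 and medians -0.38 to -0.33. For SUM159PT minus SUM149PT it was 0.0102 with the mean of probe sets, and without single arrays counts were 35 to 38 and medians -0.10 to -0.04. The mean of probe sets turned the sign of ATP5IF1 (0.30), ATP5PB (0.32), NDUFS1 (0.20) and SDHD (0.0236) for HS578T minus SUM149PT, of NDUFA6 (0.0322) and NDUFB4 (-0.0099) for HS578T minus SUM159PT, and of NDUFV1 (0.0725), SDHC (0.15), SDHD (0.22) and UQCRB (0.0102) for SUM159PT minus SUM149PT. AZD3965 arrays in place of DMSO arrays turned COX6B2 (-0.58). The cause was not tested. The settings without the third scramble array under quantile normalization, and those with AZD3965 arrays in place of DMSO arrays, were chosen after seeing the data. COX6A2, COX4I2 and COX6B2 lie at low signals, where the noise of the arrays limits what can be seen.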
